A study of Saccharomyces cerevisiae with 8 samples.

Results

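The genes described here are the 10 open reading frames (ORFs) of the R64 annotation whose symbols name a translation elongation factor or its paralog, TEF1, TEF2, EFB1, TEF4, CAM1, EFT1, EFT2, YEF3, HYP2 and ANB1, out of 6002 nuclear protein-coding ORFs. They were taken by symbol alone, and all 10 were found. YEF3 and CAM1 share an older synonym in the annotation, so each was matched by its current symbol. RNA polymerase II (RNAPII) was immunoprecipitated with the 8WG16 antibody, which recognises its largest subunit, Rpb1, from W303a budding yeast in mid-log phase in SC medium at 30 °C. Tfg1 is the larger TFIIF subunit, and its lysines named in the Tfg1-K60,61R-HA allele were replaced by arginine, which impairs its sumoylation, with an unintended missense substitution elsewhere in the protein. The Tfg1-HA strain had the normal sequence. The study compared the strains to ask whether impaired sumoylation of Tfg1 alters RNAPII over genes. Both strains shared the W303 background and the HA epitope tag on Tfg1. An effect of the lysines and one of the further substitution cannot be told apart with these strains.

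Elongation factors carry the ribosome through each round of the elongation cycle. eEF1A (TEF1, TEF2) brings aminoacyl-tRNA to the ribosome, the eEF1B complex (EFB1, TEF4, CAM1) exchanges its guanine nucleotide, eEF2 (EFT1, EFT2) drives translocation, and eEF3 (YEF3) is an ATPase needed for elongation in fungi. eIF5A (HYP2, ANB1) relieves stalling of the ribosome and is the one protein known to carry the modified lysine hypusine. Most of these proteins are among the most abundant in growing yeast, and several are encoded by duplicate genes.

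The 4 peak lists, one for each immunoprecipitation (IP) library, held 1098 and 894 peaks in the Tfg1-K60,61R-HA replicates 1 and 2, and 1257 and 1171 peaks in the Tfg1-HA replicates 1 and 2. Values are given below in this order of strain and replicate. Where nothing else is said, an ORF counts as occupied if peaks of a list lie over at least 50% of its bases. In the Tfg1-K60,61R-HA replicates 1015 and 762 ORFs were occupied, against 1193 and 1041 in the Tfg1-HA replicates. Of these lists, Tfg1-K60,61R-HA replicate 1 and also Tfg1-HA replicate 2 were deposited under names whose letter case points to the other genotype. Labels were kept, and counts and medians that compare the strains are also given without both of these lists, as 1 list against 1 with no test. That pair sets the longest list, of 1257 peaks, against the shortest, of 894. Every separation of the strains reported below holds for the labels as kept. If the genotypes of these lists were exchanged, values that do not overlap between strains would necessarily overlap. As a check of mating type a, which the strain label gives, the a-specific genes MFA2 and STE2, 2 of 6 listed, lay under peaks over 100% of their length in every list. MFA1 was covered over 14.4% and 90.1% in the Tfg1-K60,61R-HA replicates, against 100% and 100% in the Tfg1-HA replicates. BAR1 had 0% and 0%, against 41.2% and 100%. STE6 was covered over 1.81% to 13.6%, and AGA2 had no peak. None of the 4 alpha-specific genes had a peak in any list. Of the haploid-specific genes GPA1, STE4, STE18 and FUS3, 0 of 4 were occupied in all 4 lists. As 60.2% of all ORFs had no peak in any list, the absence of peaks from the 4 alpha-specific genes says little about mating type. TFG1 itself had no peak in any list, so the lists give no check of the allele. The lists hold no reads, so that depth is unknown and RNAPII density was not measured.

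The stretches upstream of the 4 genes with the most bases under peaks of Tfg1-HA alone, and the coding stretches in which duplicate genes can be told apart, are shown first because the results below turn on them. The upstream sequences run 5′ to 3′ on the coding strand of the R64 RefSeq genome and give 200 bases, ending 50 bases before the start codon. W303 may differ from this reference, and its own sequence was not used. For the first 4, capitals mark the bases under peaks in both Tfg1-HA replicates and in neither Tfg1-K60,61R-HA replicate.
EFT1, chrXV:574848-575047, plus strand: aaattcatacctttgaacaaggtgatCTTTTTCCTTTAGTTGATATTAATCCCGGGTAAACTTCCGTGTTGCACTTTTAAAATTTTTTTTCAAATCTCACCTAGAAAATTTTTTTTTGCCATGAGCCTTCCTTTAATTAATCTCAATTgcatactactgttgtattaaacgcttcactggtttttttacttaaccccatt
EFT2, chrIV:1242980-1243179, plus strand: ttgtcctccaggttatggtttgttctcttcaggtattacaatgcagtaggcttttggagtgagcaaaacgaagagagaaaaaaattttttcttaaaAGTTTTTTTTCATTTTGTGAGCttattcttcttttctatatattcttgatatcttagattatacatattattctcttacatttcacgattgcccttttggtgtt
TEF4, chrXI:282641-282840, plus strand: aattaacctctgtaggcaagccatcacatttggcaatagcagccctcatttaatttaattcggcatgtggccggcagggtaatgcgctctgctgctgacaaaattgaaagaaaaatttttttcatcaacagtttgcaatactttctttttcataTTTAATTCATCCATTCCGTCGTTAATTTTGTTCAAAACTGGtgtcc
YEF3, chrXII:636530-636729, plus strand: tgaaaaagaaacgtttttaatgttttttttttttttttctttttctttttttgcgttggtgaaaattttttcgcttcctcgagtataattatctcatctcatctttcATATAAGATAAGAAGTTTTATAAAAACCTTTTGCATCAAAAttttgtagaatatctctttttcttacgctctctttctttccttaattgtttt
In the same window of ANB1, which had no peak in any list, capitals mark matches to the core letters bound by Rox1, the repressor of hypoxic genes.
ANB1, chrX:525432-525631, minus strand: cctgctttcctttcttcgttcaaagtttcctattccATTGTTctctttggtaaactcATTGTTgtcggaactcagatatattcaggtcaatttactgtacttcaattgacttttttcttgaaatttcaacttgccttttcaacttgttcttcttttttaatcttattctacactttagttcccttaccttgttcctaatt

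Coding stretches of 90 bases, chosen as those with the most mismatches between copies, show how little separates the eEF1A and eEF2 genes and how much more separates the eIF5A genes. Capitals mark the bases that differ between the copies of a pair.
TEF1, chrXVI:701338-701427, plus strand: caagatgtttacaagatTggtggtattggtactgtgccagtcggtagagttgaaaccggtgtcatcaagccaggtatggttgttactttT
TEF2, chrII:478415-478504, plus strand: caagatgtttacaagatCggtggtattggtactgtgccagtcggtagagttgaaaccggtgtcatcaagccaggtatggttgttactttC
EFT1, chrXV:575455-575544, plus strand: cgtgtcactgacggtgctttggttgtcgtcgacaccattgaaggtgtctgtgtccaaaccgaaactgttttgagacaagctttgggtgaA
EFT2, chrIV:1243587-1243676, plus strand: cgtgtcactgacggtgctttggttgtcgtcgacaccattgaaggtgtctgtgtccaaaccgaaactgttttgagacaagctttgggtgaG
HYP2, chrV:85956-86045, plus strand: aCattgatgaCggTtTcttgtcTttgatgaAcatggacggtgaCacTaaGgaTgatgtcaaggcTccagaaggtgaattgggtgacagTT
ANB1, chrX:525012-525101, minus strand: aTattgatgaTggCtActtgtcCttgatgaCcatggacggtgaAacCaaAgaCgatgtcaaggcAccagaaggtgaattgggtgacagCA

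To determine which elongation factor genes carried RNAPII above the threshold of the peak caller, the percent of each ORF under peaks was determined. TEF1, TEF2, EFB1, TEF4, EFT1, EFT2, YEF3 and HYP2 were covered over 100% of their length in every list, each by 1 peak. CAM1 and ANB1 had 0% in every list. The count of occupied genes was therefore 8 of 10 in each of the 4 lists, and no difference between the strains was seen in it. Among all ORFs 10.8% were occupied in all 4 lists and 60.2% had no peak in any. The same 8 genes were occupied with the same number of peaks taken from every list. Requiring any overlap of at least 1 bp, or at least 90% of the ORF, could not change the count. Coverage was either 100% or 0%. When peaks were limited to a fold of 2 or more, 7 and 5 members were occupied in the Tfg1-K60,61R-HA replicates, against 7 and 7 in the Tfg1-HA replicates. EFT1 was lost from all 4 lists under that limit, and TEF4 and EFT2 were lost from Tfg1-K60,61R-HA replicate 2 alone.

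**Figure D1:**
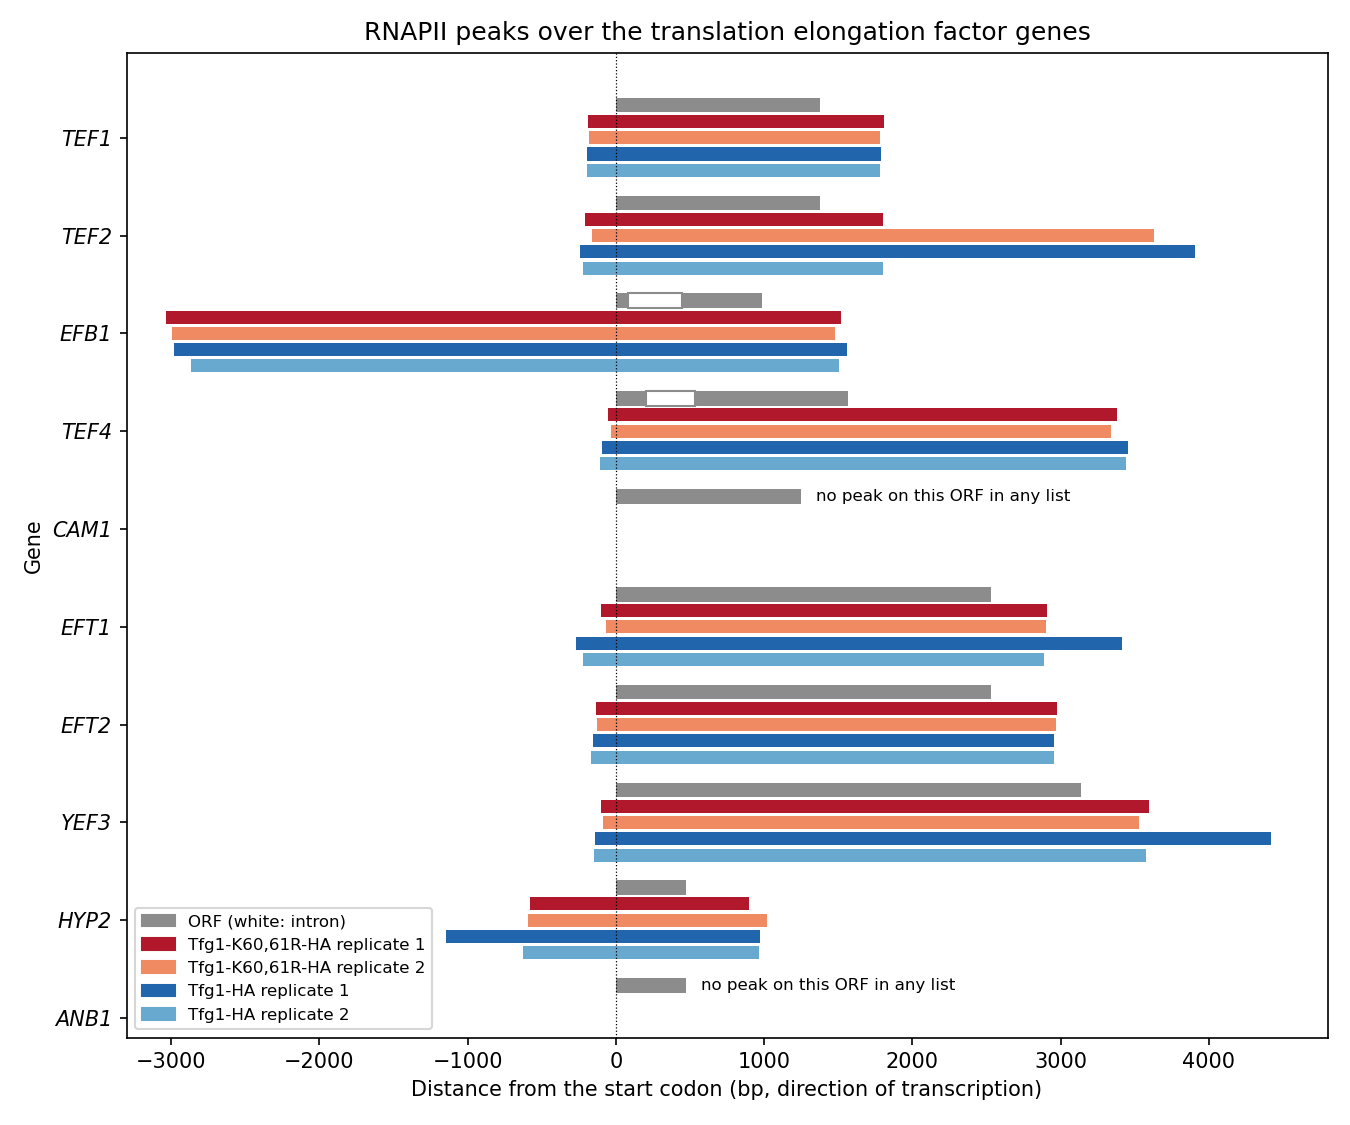
Peaks over the 10 elongation factor genes. The horizontal axis is the distance from the start codon in bp along the direction of transcription, grey bars are ORFs with introns in white, and coloured bars are the peaks on the ORF in each of the 4 lists; 8 genes lie wholly under 1 peak in every list, and CAM1 and ANB1 under none.

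The peaks did not all end at the member gene. EFB1, which encodes the catalytic exchange subunit of eEF1B, lay on chromosome I from 142174 to 143160, and its intron (142254 to 142619) holds the small nucleolar RNA gene SNR18. It shared its peak with SSA1, an Hsp70 chaperone gene upstream, in all 4 lists, and the EFB1 ORF made up 21.7% and 22.1% of the peak in the Tfg1-K60,61R-HA replicates and 21.8% and 22.6% in the Tfg1-HA replicates. TEF4, for the gamma subunit of eEF1B, lay on chromosome XI from 282891 to 284455 and has an intron (283096 to 283421) that holds SNR38. Its peak also contained VMA5, a subunit gene of the vacuolar ATPase, in all 4 lists, and the TEF4 ORF made up 45.5% and 46.4% of it in the Tfg1-K60,61R-HA replicates and 44.1% and 44.1% in the Tfg1-HA replicates. HYP2 (chromosome V, 85676 to 86149), the short eIF5A gene, made up 32.1% and 29.4% of its peak in the Tfg1-K60,61R-HA replicates and 22.4% and 29.8% in the Tfg1-HA replicates. This peak reached over the neighbouring ORFs MTC7 and UTR5. The peak fold of EFB1, TEF4 and HYP2 is therefore an average over peaks whose bases lie mostly outside the ORF. The part of neighbouring sequence in that fold was not tested.

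Of the remaining 5 covered genes, TEF1, EFT1, EFT2 and YEF3 made up most of their peak in every list, and TEF2 in some. EFT1 (chromosome XV, 575098 to 577626) and EFT2 (chromosome IV, 1243230 to 1245758) have single exons and identical coding length. EFT1 filled 84.0% and 85.2% of its peak in the Tfg1-K60,61R-HA replicates and 68.7% and 81.2% in the Tfg1-HA replicates, where the peak of replicate 1 touched the end of VPS17. EFT2 filled between 81.0% and 81.7% of its peak, which touched MUS81 in all 4 lists. YEF3 (chromosome XII, 636780 to 639914), the longest member with an ORF of 3135 bp, filled 84.8% and 86.7% of its peak in the Tfg1-K60,61R-HA replicates and 68.7% and 84.3% in the Tfg1-HA replicates. The lowest of these values was in Tfg1-HA replicate 1, where the peak also held the whole of SSP120. TEF1 (chromosome XVI, 700594 to 701970) filled between 69.0% and 70.3%, and its peak touched GRS2 in every list. For TEF2 (chromosome II, 477671 to 479047) the share was 68.3% and 36.4% in the Tfg1-K60,61R-HA replicates and 33.2% and 68.1% in the Tfg1-HA replicates. The lower share in each strain came from a peak that ran on through MUD1 and CBP6, a difference between replicates and not between strains. In those lists the fold of TEF2 is likewise an average mostly over bases outside its ORF.

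CAM1 (chromosome XVI, 464401 to 465648), the second gamma-subunit gene, was free of peaks throughout, but its surroundings differed between the labelled strains. The nearest peak was 9565 and 9725 bp away in the Tfg1-K60,61R-HA replicates, against 67 and 112 bp in the Tfg1-HA replicates. In both Tfg1-HA replicates that nearest peak lay over SGF11, a gene for a subunit of the SAGA deubiquitinating module, and no peak was present there in either Tfg1-K60,61R-HA replicate. The Tfg1-HA lists held more peaks, and the share of all peaks with this pattern was not determined. The difference near CAM1 is therefore a description only. ANB1 (chromosome X, 524908 to 525381, minus strand), the eIF5A gene expressed when oxygen is low, had its nearest peak 3193 and 922 bp away in the Tfg1-K60,61R-HA replicates, against 3144 and 3160 bp in the Tfg1-HA replicates. The nearer peak in Tfg1-K60,61R-HA replicate 2 lay over CYC1 and UTR1, and in the other 3 lists the nearest was over SSC1. A gene without a peak had no signal past the threshold of the caller at a depth that is unknown here, which does not show that RNAPII was absent.

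Next, the level at the covered genes was described by the fold of their peak, which is the enrichment of IP over input averaged over the whole peak as the authors deposited it. TEF1 and TEF2, the eEF1A genes, had the highest folds among the members in every list. The TEF1 peak had a fold of 6.75 and 5.92 in the Tfg1-K60,61R-HA replicates, against 8.35 and 8.34 in the Tfg1-HA replicates. By fold it ranked 26 and 26 among all peaks of the Tfg1-K60,61R-HA replicates, and 19 and 15 among those of the Tfg1-HA replicates. The TEF2 peak had 6.71 and 5.20 in the Tfg1-K60,61R-HA replicates, against 7.63 and 8.05 in the Tfg1-HA replicates. Both eEF1A genes thus had a lower deposited fold in each Tfg1-K60,61R-HA replicate than in either Tfg1-HA replicate. The mean difference was -2.01 for TEF1 and -1.88 for TEF2, both larger than the SD of either strain (TEF1 SD 0.587 for Tfg1-K60,61R-HA and 0.00588 for Tfg1-HA, TEF2 SD 1.07 and 0.297, n = 2 each; exact permutation p = 0.333, two-sided). The TEF2 difference was -1.13 without Tfg1-K60,61R-HA replicate 2. Both genes differed by -2.43 without both doubted lists. The p of 0.333 is the smallest that 2 lists against 2 allow, so that no gene could pass 0.05 by this test.

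The genes of the other factors spread over a wide range below eEF1A. YEF3 had a peak fold of 4.0 and 3.26 in the Tfg1-K60,61R-HA replicates, against 4.57 and 5.10 in the Tfg1-HA replicates. HYP2 had 3.59 and 4.06 in the Tfg1-K60,61R-HA replicates, against 3.72 and 3.78 in the Tfg1-HA replicates. The YEF3 values did not overlap between strains and were lower in Tfg1-K60,61R-HA, whereas those of HYP2 overlapped. EFB1 had 3.39 and 2.28 in the Tfg1-K60,61R-HA replicates, against 2.65 and 2.64 in the Tfg1-HA replicates, so that its 2 Tfg1-K60,61R-HA values lay on either side of the closely placed Tfg1-HA values. For EFT2 the fold was 2.27 and 1.85 in the Tfg1-K60,61R-HA replicates, against 2.64 and 2.71 in the Tfg1-HA replicates. TEF4 gave 2.04 and 1.67 in the Tfg1-K60,61R-HA replicates, against 2.09 and 2.51 in the Tfg1-HA replicates. EFT1, the second eEF2 gene, had the lowest fold of the 8 in every list, with 1.65 and 1.55 in the Tfg1-K60,61R-HA replicates, against 1.88 and 1.87 in the Tfg1-HA replicates.

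In all, 6 of the 8 covered genes had a lower deposited fold in both Tfg1-K60,61R-HA replicates than in both Tfg1-HA replicates, namely TEF1, TEF2, TEF4, EFT1, EFT2 and YEF3, and 0 had a higher one. Among the 651 ORFs occupied in all 4 lists the shares were 63.6% lower and 4.61% higher. The direction at these genes was thus that of most occupied ORFs. Leaving out both doubted lists, 7 of 8 members were lower in Tfg1-K60,61R-HA, all but HYP2, against 92.3% of the 651 ORFs.

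**Figure D2:**
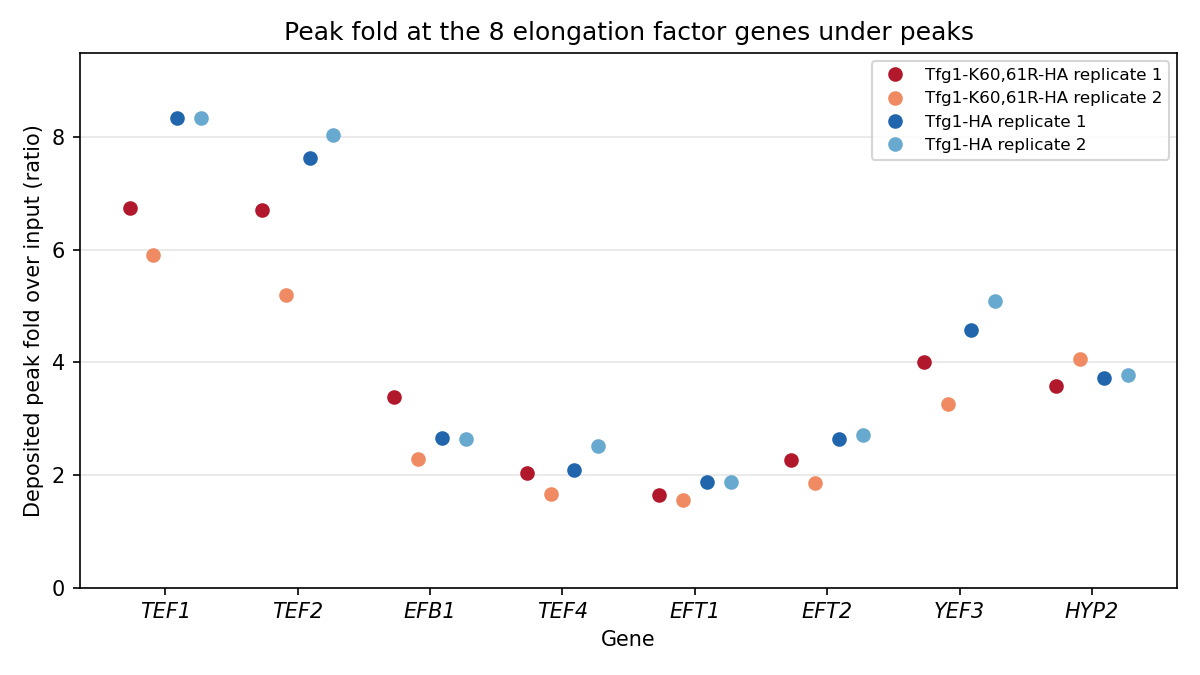
Deposited fold of the peak on each of the 8 covered genes. The vertical axis is the IP over input ratio of the peak, and each point is 1 list; TEF1 and TEF2 lie highest in all 4 lists, between 5.20 and 8.35, and EFT1 lowest, between 1.55 and 1.88.

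Because fold depends on the library, each ORF was also placed as a percentile of fold among the ORFs occupied in the same list. The order of the genes was nearly the same in every list, with TEF1 first and TEF2 second in all 4, TEF4 seventh and EFT1 last. YEF3 came next in 3 of 4 lists and HYP2 in Tfg1-K60,61R-HA replicate 2, and EFB1 and EFT2 also exchanged places, EFT2 being above EFB1 in Tfg1-HA replicate 2 only. TEF1 stood at the 94.7 and 93.7 percentile in the Tfg1-K60,61R-HA replicates, against 96.7 and 97.6 in the Tfg1-HA replicates. TEF2 stood at 94.6 and 92.9 in the Tfg1-K60,61R-HA replicates, against 96.1 and 97.1 in the Tfg1-HA replicates. These neighbours in the order differed by a mean of 0.509 points, less than the SD between replicates of either gene in either strain.

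YEF3 reached the 88.7 and 85.7 percentile in the Tfg1-K60,61R-HA replicates, against 89.2 and 91.5 in the Tfg1-HA replicates. HYP2 reached 86.2 and 90.03 in the Tfg1-K60,61R-HA replicates, against 84.8 and 83.7 in the Tfg1-HA replicates. The position of HYP2 relative to YEF3 was therefore not the same in all lists, and in the Tfg1-K60,61R-HA replicates the 2 genes overlapped. In the Tfg1-HA replicates YEF3 stood above HYP2 by more than the SD of either gene. EFB1 was at 85.4 and 72.1 in the Tfg1-K60,61R-HA replicates, against 69.9 and 70.5 in the Tfg1-HA replicates. EFT2 was at 65.9 and 52.6 in the Tfg1-K60,61R-HA replicates, against 69.8 and 71.9 in the Tfg1-HA replicates. EFB1 and EFT2 were nearly level in the Tfg1-HA replicates and stood apart in both Tfg1-K60,61R-HA replicates. TEF4 gave 59.0 and 40.1 in the Tfg1-K60,61R-HA replicates, against 55.3 and 66.1 in the Tfg1-HA replicates, the only one of the 8 whose percentiles overlapped between strains. EFT1 gave 40.4 and 30.6 in the Tfg1-K60,61R-HA replicates, against 47.9 and 48.3 in the Tfg1-HA replicates.

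By this measure TEF1, TEF2, EFT1, EFT2 and YEF3, 5 of 8, had a lower percentile in both Tfg1-K60,61R-HA replicates than in both Tfg1-HA replicates, where the share of all ORFs occupied in all 4 lists was 51.8%. EFB1 and HYP2, 2 of 8, were higher in both, against 9.22% of those ORFs. The mean differences were -2.97 points for TEF1, -2.84 for TEF2, -12.6 for EFT1, -11.6 for EFT2 and -3.16 for YEF3, and 8.56 for EFB1 and 3.89 for HYP2 (exact permutation p = 0.333 for each, two-sided, n = 2 per strain). Several of these sizes rested on 1 list. EFB1 gave 1.93 points and EFT2 -18.2 points without Tfg1-K60,61R-HA replicate 1. Without Tfg1-K60,61R-HA replicate 2 it was 15.2 points for EFB1, 1.98 for HYP2, -7.70 for EFT1, -4.93 for EFT2 and -1.67 for YEF3. YEF3 gave -2.05 points without Tfg1-HA replicate 2, and with the same number of peaks taken from every list its strains overlapped, which left 4 members lower. Within the 2 lists whose names raise no doubt, 6 of 8 members were lower in Tfg1-K60,61R-HA replicate 2 than in Tfg1-HA replicate 1, as were 82.8% of the ORFs occupied in all 4 lists. EFB1 and HYP2 again stood higher in that pair.

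The base of this percentile was larger in the longer Tfg1-HA replicates, and any ORF added at the low end of a list raises the percentile of those above it. The percentile was therefore taken again among the 651 ORFs occupied in all 4 lists, an alternative chosen after the data were seen. On this common base TEF1 and TEF2, 2 of 8 members, had the lower values in both Tfg1-K60,61R-HA replicates, with 28% of all 651 ORFs lower. TEF1 stood at 92.5 and 92.6 in the Tfg1-K60,61R-HA replicates, against 94.9 and 96.3 in the Tfg1-HA replicates, and TEF2 at 92.3 and 91.9, against 94.0 and 95.7. The other 2 whose strains did not overlap were EFB1 and HYP2, both higher in Tfg1-K60,61R-HA, with 24.7% of all 651 ORFs higher. EFB1 stood at 80.3 and 68.4 in the Tfg1-K60,61R-HA replicates, against 53.8 and 58.4 in the Tfg1-HA replicates, and HYP2 at 81.1 and 88.8, against 76.4 and 76.3. EFT1, EFT2, YEF3 and TEF4 overlapped between strains on this base, so that the lower percentile of EFT1, EFT2 and YEF3 depended on the base used. Without both doubted lists 4 of 8 members were lower in Tfg1-K60,61R-HA (TEF1, TEF2, EFT1 and EFT2), against 47.2% of the 651 ORFs.

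**Figure D3:**
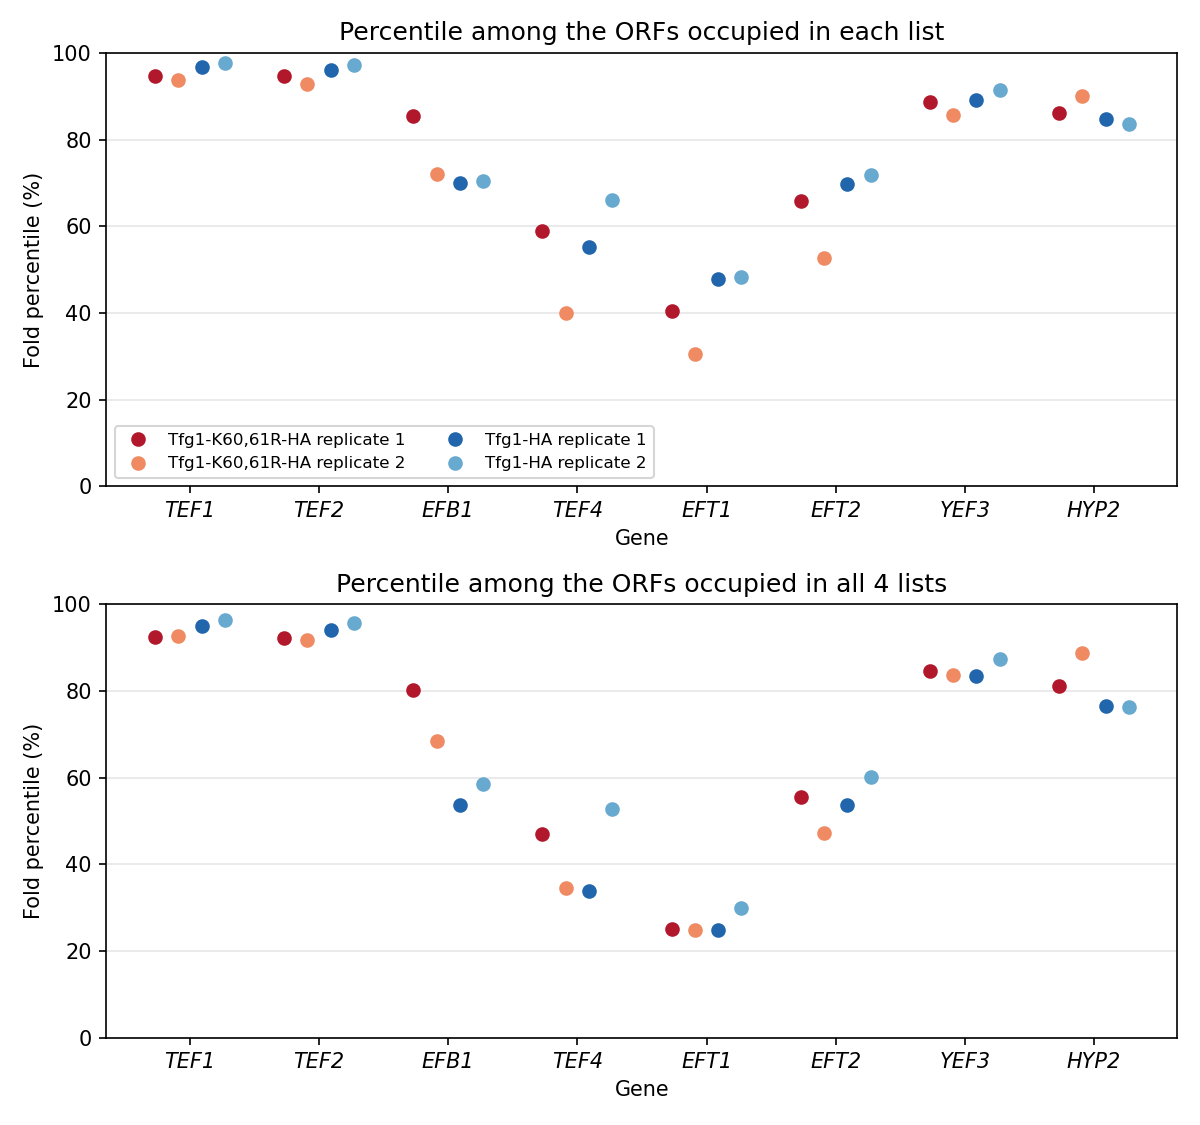
Fold percentile of the 8 covered genes in each list, among the ORFs occupied in that list (upper panel) and among the ORFs occupied in all 4 lists (lower panel). Each point is 1 list; TEF1 and TEF2 lie lower in both Tfg1-K60,61R-HA replicates in both panels, EFB1 and HYP2 lie higher in both, and EFT1, EFT2 and YEF3 separate by strain only in the upper panel.

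As a group, the 8 covered genes had a median fold percentile of 82.3 ± 4.87 in the Tfg1-K60,61R-HA replicates and 77.6 ± 0.293 in the Tfg1-HA replicates (SD, n = 2 each), a difference of 4.79 points that was within the SD of the Tfg1-K60,61R-HA replicates. It was 1.35 points without Tfg1-K60,61R-HA replicate 1, 8.23 points without Tfg1-K60,61R-HA replicate 2 and 1.56 points without both doubted lists. On the common base the medians were 78.4 ± 3.26 and 66.7 ± 2.25 (SD, n = 2 each), a difference of 11.7 points, or 10.98 without both doubted lists. On that base EFB1 and HYP2 had a positive difference and the other 6 covered genes a negative one, so that the shift of the median was not shared by all members. In every list EFB1 or HYP2 was among the middle genes that set the median, and in replicate 1 of each strain both were. The group median thus depends on these genes, and most bases of their peaks lie outside the ORF. Of the 137 ribosomal protein genes, also highly expressed and part of the translation apparatus, 136 were occupied in all 4 lists. Their median fold percentile was 61.6 ± 0.403 in the Tfg1-K60,61R-HA replicates and 74.6 ± 2.33 in the Tfg1-HA replicates (SD, n = 2 each), a difference of -12.9 points, or -11.6 without both doubted lists. Over all 651 ORFs the difference in the median was -7.04 points, or -11.8 without both doubted lists. On the common base the medians of the 136 genes were 53.3 ± 4.21 in the Tfg1-K60,61R-HA replicates and 61.9 ± 5.59 in the Tfg1-HA replicates (SD, n = 2 each), a difference of -8.54 points, or -1.61 without both doubted lists. Over all 651 ORFs the common-base medians averaged 50.12 in the Tfg1-K60,61R-HA replicates and 50.04 in the Tfg1-HA replicates, by construction. These medians are given as descriptions, and the difference between the gene groups was not tested.

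The edges of the peaks were then measured in relation to the genes, since a broad region that ends closer to the start codon covers less of the promoter side. At TEF4 the upstream edge lay 55 and 32 bp before the start codon in the Tfg1-K60,61R-HA replicates, against 96 and 104 bp in the Tfg1-HA replicates. At EFT1 it lay 102 and 67 bp before the start codon in the Tfg1-K60,61R-HA replicates, against 268 and 224 bp in the Tfg1-HA replicates. The mean difference at EFT1 was -161.5 bp, and -139.5 bp without Tfg1-HA replicate 1, the list in which the peak touched VPS17 on the upstream side. YEF3 gave 102 and 89 bp in the Tfg1-K60,61R-HA replicates, against 143 and 145 bp in the Tfg1-HA replicates. EFT2 gave 132 and 126 bp in the Tfg1-K60,61R-HA replicates, against 154 and 171 bp in the Tfg1-HA replicates. In these 4 genes the strains did not overlap, and each mean difference exceeded the SD of either strain.

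At the eEF1A genes the shift was smaller relative to the spread. TEF1 gave 188 and 180 bp in the Tfg1-K60,61R-HA replicates, against 192 and 194 bp in the Tfg1-HA replicates, a mean difference of -9 bp. TEF2 gave 211 and 159 bp in the Tfg1-K60,61R-HA replicates, against 244 and 222 bp in the Tfg1-HA replicates. The nearest values of the strains were 11 bp apart at TEF2, less than the difference between its 2 Tfg1-K60,61R-HA replicates. Without Tfg1-K60,61R-HA replicate 2 the mean difference was -5 bp at TEF1, and at TEF2 -22 bp instead of -48 bp. Without Tfg1-K60,61R-HA replicate 1 the TEF2 difference was -74 bp. The peak on HYP2 began 577 and 594 bp before the start codon in the Tfg1-K60,61R-HA replicates, against 1146 and 627 bp in the Tfg1-HA replicates, and the farthest edge was the one that took in the whole of UTR5. The mean difference at HYP2 was -301 bp, but -41.5 bp without that list, Tfg1-HA replicate 1, and -560.5 bp without Tfg1-HA replicate 2. EFB1 went the other way, with 3033 and 2993 bp in the Tfg1-K60,61R-HA replicates against 2979 and 2865 bp in the Tfg1-HA replicates, at an edge that lies beyond SSA1. Its mean difference of 91 bp was 148 bp without Tfg1-HA replicate 1, 34 bp without Tfg1-HA replicate 2 and 14 bp without both doubted lists.

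The upstream edge was therefore nearer the start codon in both Tfg1-K60,61R-HA replicates at 7 of 8 members, all but EFB1, with 65.1% for all ORFs occupied in all 4 lists. It was farther at 1 member, EFB1, with 2.92% for all such ORFs. Without both doubted lists it was nearer at 7 of 8 members, with 93.2% of the 651 ORFs. At the downstream edge 1 member, TEF4, ended nearer the stop codon in both Tfg1-K60,61R-HA replicates (31.8% of all such ORFs), and 1, EFT2, ended farther past it (8.45%). The EFT2 peak ended 446 and 441 bp past the stop codon in the Tfg1-K60,61R-HA replicates, against 426 and 424 bp in the Tfg1-HA replicates. Leaving out both doubted lists, the downstream edge was nearer in Tfg1-K60,61R-HA at 6 of 8 members, all but EFT2 and HYP2, with 83.4% of the 651 ORFs. Edges of a called region move with depth as well as with occupancy, and the part of depth in these shifts was not tested.

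**Figure D4:**
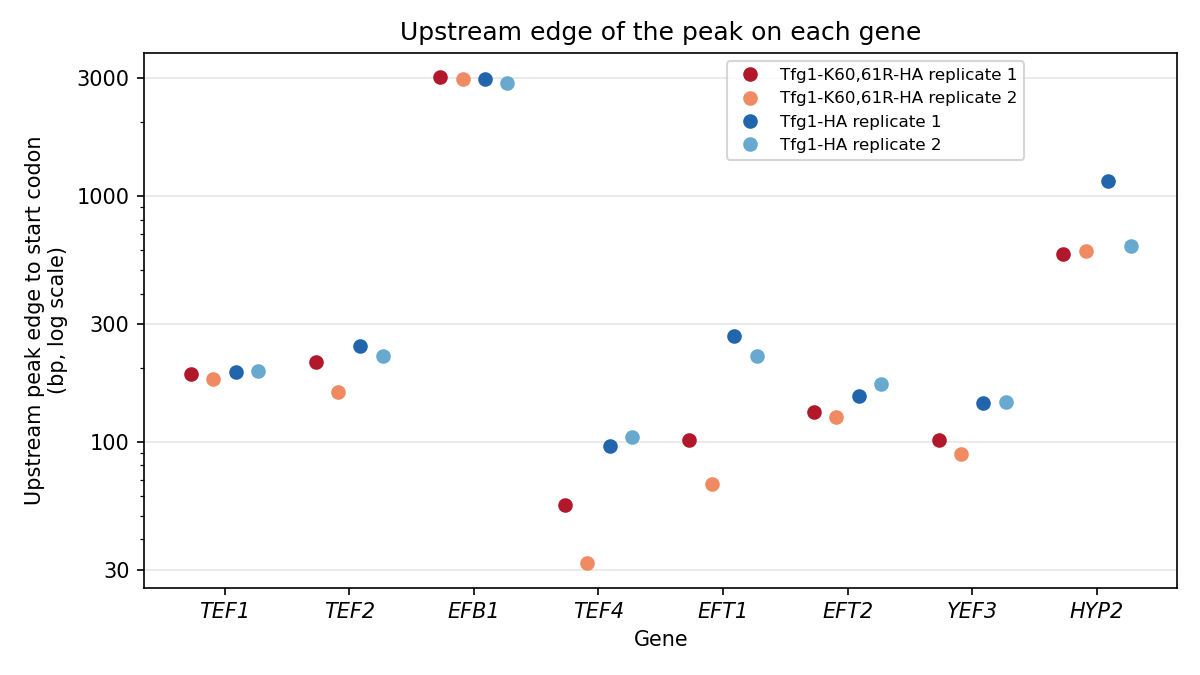
Distance of the upstream peak edge from the start codon at the 8 covered genes, in bp on a log axis. Each point is 1 list; the edge lies nearer the start codon in both Tfg1-K60,61R-HA replicates at 7 genes and farther at EFB1, whose peak also spans SSA1.

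Within the 250 bases before each start codon, the bases under both Tfg1-HA replicates and neither Tfg1-K60,61R-HA replicate numbered 122 at EFT1, 41 at TEF4, 41 at YEF3, 22 at EFT2, 11 at TEF2 and 4 at TEF1. No member had a base under both Tfg1-K60,61R-HA replicates and neither Tfg1-HA replicate there. EFB1 and HYP2 had 250 bases under all 4 lists. In the YEF3 sequence printed above, the capitals hold both of its matches to the TATA box letters TATAAA, which lie on opposite strands and overlap each other, 127 to 120 bases before the start codon. Searched on both strands of the 300 bases before the start codon, TATAAA was found in 3 of 10 members, TEF2, EFT1 and YEF3, and in 48.2% of 6001 promoters of that length. The Rap1 core letters ACCCNNNCA were found in 1 of 10 members, YEF3, and in 7.52% of all promoters. The Rox1 core letters ATTGTT were found in 3 of 10 members and in 34.1% of all promoters. ANB1 held 3 of these matches, 2 of which stand in capitals in its printed sequence, while EFB1 and YEF3 held 1 each and HYP2, the eIF5A gene of aerobic cells, held 0. No motif overlapped a match to another, and a match is a description of letters only.

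The paralog pairs were compared within each list, where library and list size are shared. Coding sequences of TEF1 and TEF2 differed at 2 of 1377 bases, and those of EFT1 and EFT2 at 4 of 2529 bases. Of all 100-base windows of the ORF, 86.5% for TEF1 and TEF2 and 83.5% for EFT1 and EFT2 occurred without mismatch elsewhere in the genome. The other 6 members had 0% of such windows, and so did the 300-base flanks of all 10. The bases of a shared window alone cannot place a read in 1 copy. A longer read, or its mate, may still reach a mismatch or the flank and so be placed. The share of reads that fit both copies was not determined, and how the aligner treated such reads is not given in the sources used here. In sequence, the copies are distinguished mostly by the flanks within each peak.

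TEF1 had a higher fold percentile than TEF2 in 4 of 4 lists, by 0.509 ± 0.302 points (SD, n = 4 lists; exact sign-flip permutation p = 0.125, two-sided, adjusted p = 0.125 by Benjamini-Hochberg over 2 pairs). The difference ranged between 0.0985 points in Tfg1-K60,61R-HA replicate 1 and 0.787 points in Tfg1-K60,61R-HA replicate 2, so that the strains overlapped. In each strain the larger difference came from the list whose TEF2 peak ran on through MUD1 and CBP6. It was 0.787 points in Tfg1-K60,61R-HA and 0.671 points in Tfg1-HA, against 0.0985 and 0.480 points with the shorter TEF2 peak. The part of MUD1 and CBP6 in this difference was not tested. EFT1 had a lower fold percentile than EFT2 in 4 of 4 lists, with a difference of -23.3 ± 1.67 points (SD, n = 4 lists; exact sign-flip permutation p = 0.125, two-sided, adjusted p = 0.125 over 2 pairs). For this pair the difference was -25.5 and -22.0 points in the Tfg1-K60,61R-HA replicates, against -22.0 and -23.5 points in the Tfg1-HA replicates. The eEF2 pair was thus separated by many times its spread over lists, and the separation overlapped between the strains. A p of 0.125 is the smallest that 4 lists allow.

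For the diverged pairs the contrast was in the presence of a peak. TEF4 and CAM1 shared 69.1% of aligned coding positions, and coverage of TEF4 exceeded that of CAM1 by 100 percentage points in 4 of 4 lists. HYP2 and ANB1 differed at 43 of 474 coding bases, an identity of 90.9%, and coverage of HYP2 exceeded that of ANB1 by 100 percentage points in 4 of 4 lists (exact sign-flip permutation p = 0.125 for each pair, adjusted p = 0.25 over 4 pairs). No 100-base window of these 4 ORFs recurs elsewhere, so that this contrast does not rest on reads that fit both copies.

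Genes that modify or resemble the elongation factors formed a list of 23. In the Tfg1-K60,61R-HA replicates 0 and 0 of them were occupied, against 1 and 3 in the Tfg1-HA replicates, with 16.9%, 12.7%, 19.9% and 17.3% of all ORFs occupied in the same lists. No list had a peak on 14 of them, 60.9%, which is near the 60.2% of all ORFs. DPH5, which encodes the methyltransferase of the diphthamide pathway that modifies eEF2, was covered over 0% and 47.5% in the Tfg1-K60,61R-HA replicates, against 66.3% and 88.5% in the Tfg1-HA replicates. LIA1, the hydroxylase that completes hypusine on eIF5A, was covered over 0% and 0% in the Tfg1-K60,61R-HA replicates, against 0% and 90.9% in the Tfg1-HA replicates. ARB1, an ABC-type ATPase gene, had 10.7% and 27.2% in the Tfg1-K60,61R-HA replicates, against 48.6% and 100% in the Tfg1-HA replicates. LIA1 and ARB1 passed the occupancy limit in Tfg1-HA replicate 2 alone, which is one of the doubted lists. HEF3, the second eEF3 gene, had no peak in any list, in contrast to YEF3. The mitochondrial factor genes TUF1, MEF1 and MEF2 were not occupied in any list, although part of TUF1 (13.0% to 26.2%) lay under a peak in each.

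The 5 ORFs outside the members with the fold percentiles most like the members' median, by the summed absolute difference over the 4 lists among the ORFs occupied in all 4, were MRS3, DPI8, TOS6, YLR342W-A and FKS1. Their summed differences ran between 10.2 points for MRS3 and 14.3 points for FKS1. MRS3 and DPI8 had equal percentiles in every list but Tfg1-HA replicate 2 (76.0 and 75.9). YLR342W-A and FKS1 had equal percentiles in both Tfg1-K60,61R-HA replicates and nearly equal ones in the Tfg1-HA replicates. The ORFs of each of these pairs are neighbours by systematic name, so they are not separate examples. The members' median was 85.8 and 78.9 in the Tfg1-K60,61R-HA replicates, against 77.3 and 77.8 in the Tfg1-HA replicates. TOS6, at 86.7 and 82.0 in the Tfg1-K60,61R-HA replicates, against 72.9 and 75.4 in the Tfg1-HA replicates, was higher in both Tfg1-K60,61R-HA replicates. MRS3, a mitochondrial carrier gene, stood at 79.7 and 79.5 in the Tfg1-K60,61R-HA replicates, against 79.0 and 76.0 in the Tfg1-HA replicates, and hardly moved between lists.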

How the data were processed

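RNAPII chromatin immunoprecipitation libraries and input libraries of both strains (8 samples in 4 groups) were sequenced with paired ends. Per the labels and the methods of the study, reads were trimmed with TrimGalore, aligned with Bowtie2 2.3.5.1 to sacCer3, and called as broad regions with MACS2 2.2.7.1 in each IP library against input at a q cut-off of 0.1, without pooling. The authors deposited 1 list per IP library, with peak positions, a fold ratio of IP over input, a display score, a −log10 p-value and a −log10 q-value. The score and the p-values were not used, and the lists give no depth. The list of Tfg1-K60,61R-HA replicate 1 had 1992 lines, of which 894 repeated the list of Tfg1-K60,61R-HA replicate 2 and were removed.

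Members and other gene lists were chosen with earlier results of these data known. ORFs ran from first to last coding base of the R64 annotation (the sacCer3 build), introns included, and 0 peaks passed a chromosome end. Each ORF was given the deposited fold of the peaks on it, averaged by overlap. Named genes were the 10 members, ORFs under their peaks, the list of modifying and related genes, TFG1, and the 5 ORFs of nearest pattern. Groups and replicates follow the labels. The study describes the replicates as independent and as prepared from cultures, without saying whether each had its own culture. The p-values measure the spread between these lists, which may in part be technical. Strains were compared by two-sided exact permutation tests and paralogs by exact sign-flip tests, in Python 3.11.15 with numpy 2.4.6, pandas 2.3.3 and scipy 1.17.1. Coding sequences were aligned with Biopython 1.88. The steps were tested on simulated lists.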

Additional observations from a re-analysis of the deposited data

How the results depend on the processing

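Over 16 alternative settings of 54 results, 566 of 593 values were classed as unchanged, 11 moved and 16 reversed. Except for group medians and for counts over all lists, this class rests on direction alone. Sizes could change widely within it, as at EFB1 above. Taking the same number of peaks from every list cannot move the edges of the peaks kept, so it is no check of edges. A fold of at least 2 moved most. The difference in members occupied per list became -1, the number occupied in all 4 lists 5, the difference in median coverage -25 points, the members lower in both Tfg1-K60,61R-HA replicates 3, those with a nearer upstream edge 4, EFT1 minus EFT2 coverage -75 points, and the difference in the median fold percentile reversed to -6.57 points; fewer peaks were left by construction. On the common base, chosen after the data were seen, that difference was 11.7 points and the count of lower members 2. With the percentile taken within each list, the median difference was 1.56 points without both doubted lists. Leaving out 1 list at a time gave 1.35 to 8.23 points for the median, 5 to 6 lower members and 7 nearer upstream edges. TEF1 minus TEF2 stayed between 0.416 and 0.646 points and EFT1 minus EFT2 between -23.7 and -22.5 points. Differences in downstream edge and peak width reversed at 5 members, and the cause was not tested. With the repeated lines kept, the TEF2 downstream edge gave 775.5 bp, its width 727.5 bp and the HYP2 downstream edge 52.5 bp. Without both doubted lists the TEF1 downstream edge gave -9 bp, the EFB1 width -64 bp and the HYP2 downstream edge 49 bp. With 1 list left out, the downstream edge difference ranged from -6.5 to 21.5 bp at TEF1, from -1187 to 916 bp at TEF2, from -69.5 to 52.5 bp at HYP2 and from -509.5 to 12.5 bp at EFT1, and that in width from -19.5 to 16.5 bp at TEF1, from -1246 to 879 bp at TEF2 and from -22.5 to 140.5 bp at EFB1. With the replicate block each mean difference stays the same by arithmetic, 4.79 points for the median. The values of that setting, which are among the 593, are therefore no check of direction. The smallest p of 2 pairs is 0.5. Deviations of same-numbered lists correlated at 0.123 for coverage and 0.301 for fold percentile, over 2 pairs only.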
